A study of Mus musculus with 4 samples.

Results

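A group of complement C1q and lipid-handling macrophage genes, 9 of the 16500 gene symbols listed in any library, was followed across the leukocytes of the mouse gut epithelial layer. Its members are C1qa, C1qb, C1qc, Apoe, Trem2, Ms4a7, Lgmn, Fcrls and Lpl. They were read in macrophages, defined as cells with no UMI (unique molecular identifier, 1 counted transcript molecule) of Cd3d, Cd3e or Cd3g and with either at least 3 UMIs of C1qa, C1qb and C1qc together or at least 3 UMIs of Fn1 and Retnla together. This rule took 383 of 14373 cells. The data were 4 droplet libraries made by single-cell RNA sequencing with the 10x Genomics 3′ chemistry, 1 each from stomach, small intestine, cecum and colon. Every library held CD45.2+ cells sorted from the epithelial layer of C57BL/6 mice, and no mouse was infected. The labels give no age, sex or number of animals, and their extraction text names only colons for all 4 libraries, so the tissue labels were used. With 1 library per tissue no test was possible, and intervals in brackets are 95% intervals for counting error only. Tissue, animal and library cannot be told apart.

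C1q is the recognition molecule of the classical complement pathway, built from A, B and C chains that are encoded by C1qa, C1qb and C1qc. Outside the liver-derived complement system, tissue macrophages are its main source. Apoe encodes apolipoprotein E, a lipid carrier, and Lpl encodes lipoprotein lipase, which frees fatty acids from lipoprotein particles. Trem2 is a lipid-sensing surface receptor that signals through the adaptor Tyrobp. Lgmn encodes legumain, an asparaginyl endopeptidase of lysosomes, Ms4a7 a membrane protein of the tetraspanning MS4A family, and Fcrls an Fc receptor-like molecule known as a microglial marker.

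The members lie on 7 chromosomes of GRCm38, and no other annotated gene overlaps any of them. The C1q genes stand side by side on the minus strand of chromosome 4, C1qb (136880129 to 136886187), C1qc (136889804 to 136893065) and C1qa (136895917 to 136898803), within 18675 bases. Apoe is on chromosome 7 (19696109 to 19699188), Trem2 on 17 (48346401 to 48354147), Ms4a7 on 19 (11321039 to 11336146), Lgmn on 12 (102394084 to 102439813), Fcrls on 3 (87250758 to 87263738) and Lpl on 8 (68880491 to 68907448). Promoter sequences came from a RefSeq table of GRCm38.p6 that held 7 of the 9 members. For the 4 members whose RefSeq start lay at or before the annotated gene start, the 150 bases before that start are shown, because C1q cells held most UMIs of Apoe, Trem2 and Ms4a7 in the stomach library. Capitals mark GAGGAA, the core of the site of the macrophage factor PU.1, or TGCTGA, a MAF half-site, on either strand. Strand, chromosome and position are C1qb, minus, chr4:136886201-136886350, Apoe, minus, chr7:19699189-19699338, Trem2, plus, chr17:48346251-48346400, and Ms4a7, minus, chr19:11336147-11336296.
C1qb: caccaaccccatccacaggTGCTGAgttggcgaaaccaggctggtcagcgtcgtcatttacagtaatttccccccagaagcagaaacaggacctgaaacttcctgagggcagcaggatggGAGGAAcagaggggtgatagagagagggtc
Apoe: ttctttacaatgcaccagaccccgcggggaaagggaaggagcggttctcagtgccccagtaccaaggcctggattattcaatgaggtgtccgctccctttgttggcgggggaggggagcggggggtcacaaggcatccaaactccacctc
Trem2: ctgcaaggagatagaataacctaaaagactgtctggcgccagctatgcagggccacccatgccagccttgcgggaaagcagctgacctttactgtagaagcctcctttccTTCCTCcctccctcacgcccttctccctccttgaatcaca
Ms4a7: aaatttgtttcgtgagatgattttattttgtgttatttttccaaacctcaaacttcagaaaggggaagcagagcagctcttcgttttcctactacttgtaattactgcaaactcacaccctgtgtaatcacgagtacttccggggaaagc
In the full 250 bases before the start, GAGGAA was present in C1qb (30 to 25 bases upstream), Trem2 (40 to 35, opposite strand) and Apoe (250 to 245, outside the stretch shown), but not in Ms4a7. It was present in 23.3% of the 32851 promoters of the table. TGCTGA was found only in C1qb (131 to 126 bases upstream), against 16.1% of all promoters. Neither TTGCNNAA, a C/EBP site held by 9.56%, nor CACGTG, the E-box held by 6.02%, was found in these 4. These matches describe letters and no binding was measured.

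Macrophages made up 9.48% of the stomach library (303 of 3197 cells), 1.10% of small intestine (35 of 3171), 0.189% of cecum (8 of 4244) and 0.984% of colon (37 of 3761). Cells with at least 3 C1q UMIs, called C1q cells, numbered 215, 24, 5 and 17. Cells taken by Fn1 and Retnla alone, called Fn1/Retnla cells, numbered 88, 11, 3 and 20. The 9 macrophage markers Csf1r, Adgre1, Cd68, Fcgr1, Mrc1, Cx3cr1, Lyz2, Cd14 and Ctss had UMIs in the C1q cells of every library. The summed mast cell markers reached 3536 CPM (UMIs of a gene per 1000000 UMIs of the class) in stomach C1q cells, 47 in small intestine and 0 in cecum and colon, where 6 and 4 of the 8 markers were listed, and their part in the values was not tested. Median depth of C1q cells was 4652, 3410, 3776 and 7082 UMIs in the order stomach, small intestine, cecum, colon, which is the order of all values below. Monocyte markers were Ly6c2, Ccr2, Plac8, Chil3, Vcan, F13a1, S100a8 and S100a9, of which 8, 6, 6 and 8 were listed. They summed to 859, 494, 1840 and 1601 CPM in C1q cells and 4278, 6460, 13722 and 7635 in Fn1/Retnla cells. The rule calls both kinds macrophages, and how many Fn1/Retnla cells were monocytes was not tested. 

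C1qa and C1qc kept similar shares of the C1q UMIs in all 4 libraries. The C1q genes chose the C1q cells, so their levels there are a description, whereas the share of each chain was free to vary. C1qa stood at 7317, 5394, 6413 and 3497 CPM in C1q cells. C1qc stood at 4596, 3514, 3995 and 1995 CPM. C1qa gave 61.3% (60.4 to 62.1) of the C1q UMIs in stomach, 60.6% (57.0 to 64.1) for small intestine, 61.6% (54.5 to 68.4) for cecum and 63.7% (59.9 to 67.3) for colon. The 4 shares overlapped in their intervals although the summed level in colon was lower. Both chains were seen in 212 of 215, 24 of 24, 5 of 5 and 14 of 17 C1q cells.

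**Figure D1:**
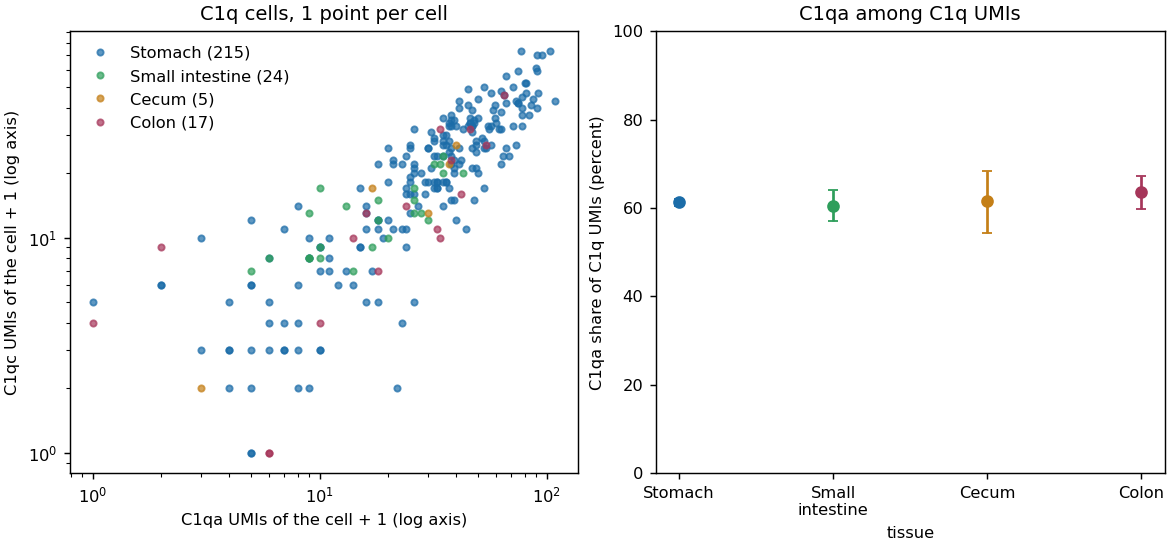
C1q chains in C1q cells of 4 libraries. Left, C1qc against C1qa UMIs of each cell, both plus 1 on log axes; right, C1qa as percent of all C1q UMIs with 95% exact binomial intervals. C1qa and C1qc UMIs, not scaled to the depth of the cell, rise together across cells, and the C1qa share lies between 60.6 and 63.7%. The part of depth in the joint rise was not tested.

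C1qb, the gene of the B chain, was listed only in the stomach matrix and held 31 UMIs there in all. Of these, 29 lay in C1q cells, beside 7722 of C1qa and 4850 of C1qc, and 28 of 215 C1q cells had any. That is 27.5 CPM (18.4 to 39.5), or 0.230% of the C1q UMIs. The gene annotation used for counting is not given in the sources used here, so these values cannot be read as the transcript level of the B chain. No level of C1qb can be given for the other 3 libraries.

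Few cells lay near the threshold. In stomach, among cells without a Cd3 UMI, 63 had 1 C1q UMI, 8 had 2, 0 had 3 and 5 had 4, so none lay on it, and the 8 just outside held 31 Apoe, 58 Fcrls and 59 Lpl UMIs. One cecum cell with 871 UMIs sat on it (2 C1qa, 1 C1qc), and so did 1 colon cell with 3 C1qc UMIs, 0 of C1qa and 0 of Apoe. Cells of the C1q or Fn1/Retnla kind that also carried a Cd3 UMI were set aside, 15, 3, 5 and 10 per library. In colon these held 174 C1qa UMIs beside the 426 in C1q cells. They also held 94 of the 132 Lpl UMIs of the colon library, 75 of them in 1 cell. Of its 61 Fcrls UMIs they held 19.

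Apoe was the most abundant member by UMIs in C1q cells of every library. It reached 28523 CPM (28202 to 28847), 28112 (26997 to 29262), 18136 (16272 to 20154) and 9745 (9199 to 10316). Stomach and small intestine did not differ beyond counting error, with a ratio of 1.01 (0.973 to 1.06), and colon lay 2.93-fold (2.76 to 3.10) below stomach. Per cell, Apoe ran from 0 through a median of 26971 to 96303 CPM in stomach, and the medians of the other libraries were 28976, 15704 and 9342. 

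Trem2 stood at 554 CPM (510 to 601), 223 (134 to 349), 263 (85.3 to 613) and 65.7 (28.4 to 129). Stomach lay above small intestine and small intestine above colon, whereas the cecum interval overlapped all 3. The cecum value came from 5 UMIs of 1 cell, and 5 of the 8 colon UMIs from 1 cell. Without the cell with most Trem2 UMIs in each library the stomach to colon ratio was 20.2, and with any Cd3 count allowed it was 4.66-fold, against 8.44 (4.26 to 19.6) as defined.

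Ms4a7 stood at 2012 CPM (1927 to 2099), 1563 (1309 to 1852), 736 (402 to 1235) and 673 (535 to 836). Stomach was higher than cecum and colon, whose intervals overlapped. Lgmn stood at 1324 CPM (1255 to 1395), 1810 (1535 to 2119), 1367 (893 to 2003) and 1207 (1020 to 1418). Small intestine was 1.37-fold (1.15 to 1.62) above stomach, and stomach, cecum and colon did not differ beyond counting error.

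Fcrls and Lpl, which were not listed in cecum, had the largest ratios of stomach over small intestine among the members. Fcrls stood at 606 CPM (560 to 655) in stomach C1q cells, at 70.5 (25.9 to 153) in those of small intestine and at 90.3 (45.1 to 162) in colon. Lpl stood at 321 (288 to 357), 106 (48.4 to 201) and 98.5 (50.9 to 172). Of the 339 Lpl UMIs of stomach C1q cells, 233 lay in the 34 cells that also passed the Fn1 and Retnla part of the rule. Those cells stood at 1100 CPM and the other stomach C1q cells at 126. Of the 9 Lpl UMIs in small intestine C1q cells, 6 came from 1 cell. In colon all 11 Fcrls UMIs and 11 of 12 Lpl UMIs came from 1 C1q cell. Without the cell with most UMIs of the gene in each library, stomach over small intestine was 16.2-fold for Fcrls and 7.32-fold for Lpl. Stomach over colon was then 30.7-fold for Lpl, with 1 colon UMI left (log2 ratio 4.94, 2.45 to 10.25), and at least 21.7-fold for Fcrls, with 0 left. Of the small intestine C1q cells, 4 of 24 carried Fcrls and 3 of 24 Lpl.

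Across genes, 3 of the 6 members that did not choose the cells were at least 2-fold higher in stomach than in small intestine C1q cells and 0 lower, where 13.9% of all 3840 genes compared were higher and 16% lower. These were Fcrls (8.60-fold, 3.93 to 23.5), Lpl (3.04-fold, 1.58 to 6.70) and Trem2 (2.48-fold, 1.58 to 4.15). For Lpl, stomach C1q cells that passed only the C1q part of the rule stood at 126 CPM. The values of 106 CPM in small intestine and 98.5 in colon are for all C1q cells. These include 2 and 4 cells that passed both parts, so the 3 values do not cover like sets. Against colon 5 of 6 were higher in stomach, all but Lgmn, with 0 lower, beside 11.1% of 3724 genes higher and 12.9% lower. Trem2 was 8.44-fold (4.26 to 19.6) higher there, 20.2-fold without the cell with most UMIs in each library and 4.66-fold with any Cd3 count allowed. Between small intestine and colon 3 of 5 were higher in small intestine, and 0 lower, beside 11.9% and 21.1% of 1816 genes. They were Trem2 (3.40-fold, 1.42 to 8.98), Apoe (2.88-fold, 2.69 to 3.10) and Ms4a7 (2.32-fold, 1.75 to 3.10). Only Apoe stayed above 2-fold there when cells with any Cd3 count were allowed. Stomach against cecum gave 2 of 4 higher and 0 lower, beside 6.86% and 33.6% of 4487 genes, from 5 cecum cells. These were Ms4a7 (2.73-fold, 1.63 to 5.01) and Trem2 (2.11-fold, 0.899 to 6.52), whose interval includes 1 and whose ratio was 4.43 with any Cd3 count allowed. The median log2 ratio of these members was 0.84 for stomach over small intestine and 1.64 for stomach over colon, beside -0.02 and -0.15 over all genes. These comparisons share libraries and are not independent of each other.

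**Figure D2:**
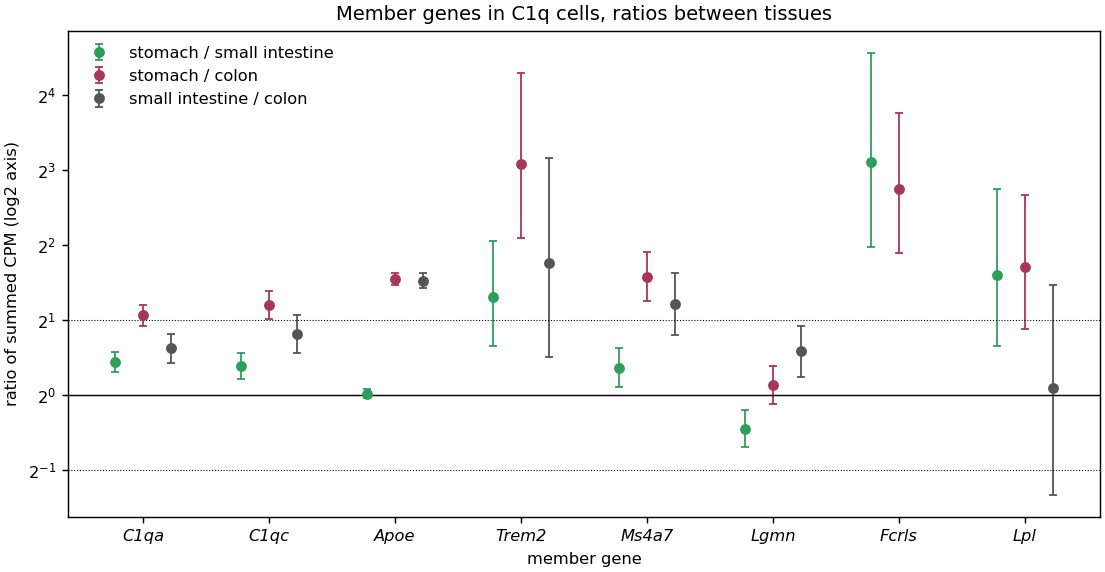
Ratios of summed CPM between tissues in C1q cells for 8 member genes, on a log2 axis, with 95% intervals for counting error. The solid line marks equal levels and dotted lines a 2-fold difference; Apoe sits at 1.01 for stomach over small intestine and 2.93 for stomach over colon, and Lgmn at 0.731 and 1.10.

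In stomach the 6 members that played no part in choosing cells split between the 2 macrophage kinds. Apoe, Trem2, Ms4a7 and Lgmn were higher in C1q cells, Fcrls and Lpl in Fn1/Retnla cells. Apoe stood at 28523 CPM in C1q cells and 777 (703 to 858) in Fn1/Retnla cells, a ratio of 36.7 (33.2 to 40.6). Ms4a7 had 2123 UMIs in C1q cells and 3 in Fn1/Retnla cells, a ratio of 342 (117 to 1657). Of those 3 UMIs, 2 came from 1 cell. Without the cell with most UMIs in each class the ratio was 1003 (log2 ratio 9.97, 7.49 to 15.3). Trem2 differed 20.2-fold (11.9 to 37.1) and Lgmn 10.1-fold (7.87 to 13.1). Lpl went the other way, 321 against 1520 CPM (1414 to 1631), 4.73-fold (4.16 to 5.39) lower in C1q cells, and Fcrls was 1.60-fold (1.42 to 1.80) lower. Thus 4 of 6 were at least 2-fold higher and 1 of 6 lower, beside 9.33% and 12% of all 3793 genes compared. Of the 5 monocyte markers compared, 0 were at least 2-fold higher in C1q cells and 5 lower (median log2 ratio -3.39).

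The same split held in direction in small intestine, where 24 C1q cells faced 11 Fn1/Retnla cells. Apoe stood at 28112 against 2473 CPM, Ms4a7 at 1563 against 19.2 and Lgmn at 1810 against 173. Fcrls was at 70.5 against 767 CPM and Lpl at 106 against 748. Of the 40 Fcrls UMIs of these Fn1/Retnla cells 20 came from 1 cell, and of the 39 Lpl UMIs 21 came from 1 cell. There 4 of 6 members were at least 2-fold higher and 2 of 6 lower, beside 17.1% and 25.8% of 1167 genes. In colon (17 against 20 cells) 3 of 6 were higher and 1 of 6 lower, beside 8.58% and 14.6% of 2284 genes. Apoe was 4.02-fold (3.54 to 4.58) higher there, and Trem2 stood at 65.7 against 136 CPM, the reverse of the other 2 libraries.

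Splitting the Fn1/Retnla cells by Retnla, a step chosen after the members' values had been seen, drew a sharper line. Retnla cells had at least 3 Retnla UMIs, and the others, called Fn1-only cells, had fewer. Retnla encodes a secreted resistin-like protein of alternatively activated macrophages, and Fn1 encodes fibronectin. In stomach Lpl stood at 2189 CPM (2036 to 2351) in 56 Retnla cells and 104 (60.5 to 166) in 32 Fn1-only cells, a ratio of 21.1 (13.1 to 36.4). Fcrls stood at 1348 (1228 to 1476) and 177 (119 to 255), a ratio of 7.60 (5.22 to 11.5). The Fcrls ratio was 12.1 at a rule of 2 UMIs and 11.4 without the cell with most UMIs in each class, and the Lpl ratio 13.9 with any Cd3 count allowed. Both genes were seen in 91.1% of the Retnla cells.

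Apoe did the opposite, at 46.3 CPM (26.5 to 75.1) in Retnla cells and 2323 (2095 to 2569) in Fn1-only cells, 50.2-fold (30.5 to 88.7) lower. Lgmn stood at 63.6 and 275 CPM, 4.32-fold lower in Retnla cells. Trem2 had 0 UMIs in the 56 Retnla cells, which allows up to 8.68 CPM, and 14 UMIs (85.6 CPM) in Fn1-only cells. Ms4a7 had 0 and 3 UMIs. Of the 4 members compared 2 were at least 2-fold higher and 2 lower, beside 13% and 10.2% of 3753 genes.

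Small intestine and colon held few such cells, and the order of Fcrls and Lpl was the same. In small intestine 4 Retnla cells had 40 Fcrls and 33 Lpl UMIs and 0 of Apoe, whereas 7 Fn1-only cells had 0, 6 and 129. Of those 40 Fcrls UMIs 20 came from 1 cell, and of those 33 Lpl UMIs 21 came from 1 cell. In colon 3 Retnla cells had 17 Fcrls, 21 Lpl and 6 Apoe UMIs, and 17 Fn1-only cells had 0, 3 and 296. All 17 of those Fcrls UMIs and 20 of those 21 Lpl UMIs came from 1 cell. Levels in these classes were 1642 and 1354 CPM for Fcrls and Lpl in small intestine Retnla cells, and 4640 and 2971 CPM for Apoe in Fn1-only cells of small intestine and colon.

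**Figure D3:**
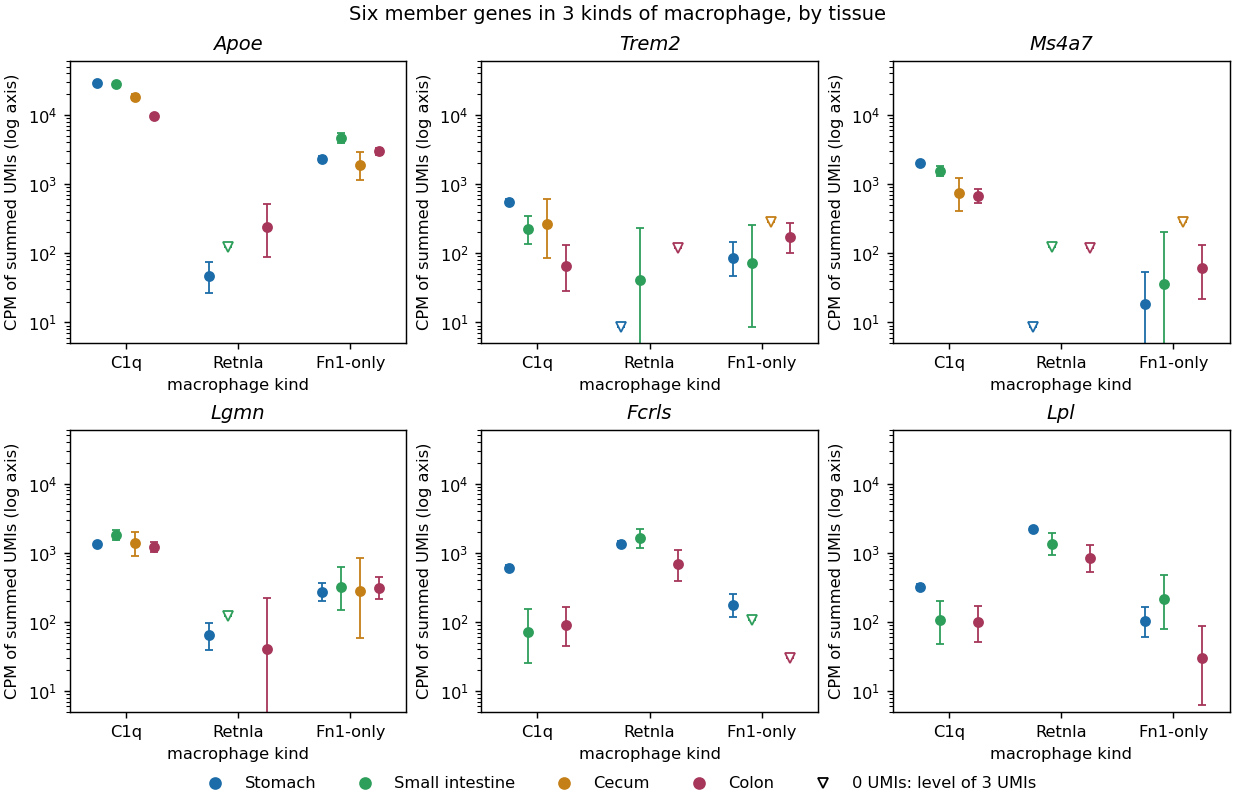
Levels of 6 member genes (CPM of summed UMIs, log axis) in C1q, Retnla and Fn1-only cells of each library, with 95% Poisson intervals; open triangles mark classes with 0 UMIs, drawn at the level of 3 UMIs. Lpl and Fcrls are highest in Retnla cells, with Lpl at 2189 CPM in stomach, whereas Apoe, Ms4a7 and Lgmn are highest in C1q cells.

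Some other genes moved with this split. Fcgr1, the high-affinity IgG receptor of macrophages, had 1 UMI in the stomach Retnla cells and 0 in those of small intestine and colon, and Cx3cr1 had 11, 0 and 0. In Fn1-only cells Fcgr1 had 11, 10 and 17 UMIs. Csf1r, Cd68, Lyz2 and Cd14 were also lower in CPM in Retnla cells of the 3 libraries. Mrc1 went the other way, at 521, 287 and 399 CPM in Retnla cells and 141, 0 and 20.1 in Fn1-only cells. Adgre1 was higher in Retnla cells in stomach only, 217 against 122 CPM. The monocyte markers summed to 2062, 1847 and 1996 CPM in Retnla cells and 8963, 10502.5 and 9052.5 in Fn1-only cells. Siglech had 22, 22 and 31 UMIs in Retnla cells and 0 in Fn1-only cells of the 3 libraries. It is 1 of 5 plasmacytoid dendritic markers, with Bst2, Ccr9, Tcf4 and Irf8. These 5 summed to 327, 2832 and 6188 CPM in Retnla cells and 648, 575 and 672 in Fn1-only cells, so the stomach sum went the other way. Summed mast cell markers were 6988 CPM in stomach Retnla cells, 1657 in Fn1-only cells, and 41.0 and 0 in Retnla cells of small intestine and colon. Their part in the values was not tested.

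Within stomach C1q cells the members divided along the same line. The 29 C1q cells with at least 3 Retnla UMIs carried 8727 CPM of Apoe (8308 to 9162), beside 32764 (32384 to 33146) in the other 186. Their median cell had 1950 CPM of Apoe against 32774. Ms4a7 stood at 371 and 2363 CPM, Trem2 at 107 and 650, and Lgmn at 602 and 1478. Lpl stood at 1133 (985 to 1297) against 147 (123 to 175), and Fcrls at 945 (811 to 1096) against 534 (486 to 585). Of the C1q cells with fewer than 3 Retnla UMIs 58.6% carried Fcrls and 28.0% carried Lpl, so Fcrls was the more widely spread of the pair. Doublets were not removed, and cells that pass both parts of the rule had a median of 5800 UMIs beside 4576 for those that pass C1q alone.

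**Figure D4:**
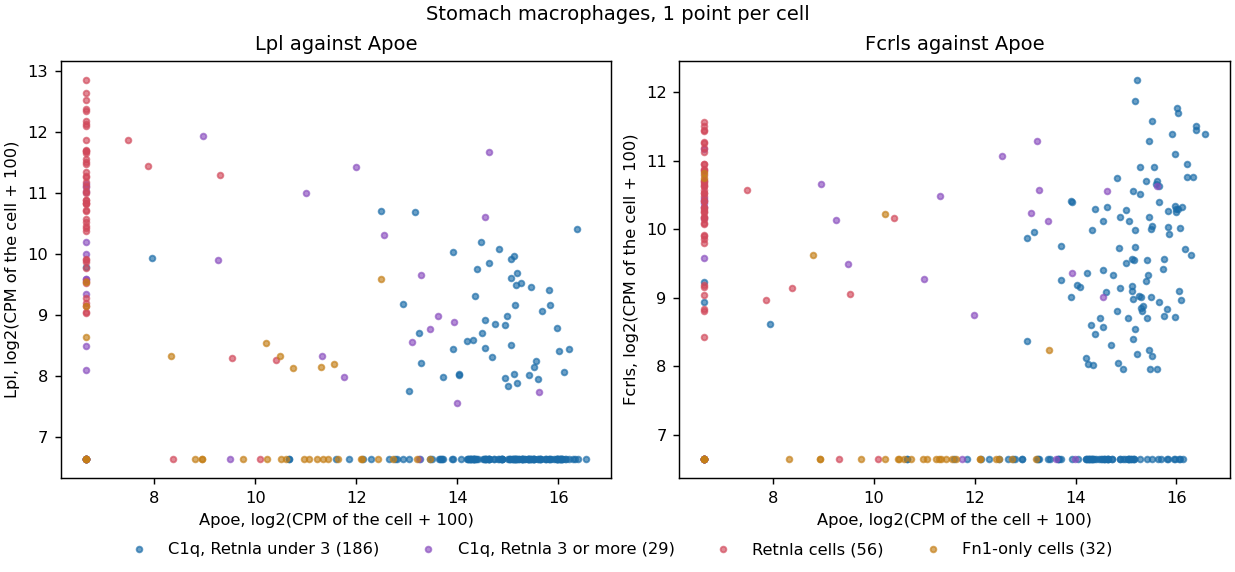
Lpl (left) and Fcrls (right) against Apoe in each of the 303 stomach macrophages, as log2 of the cell's CPM plus 100; colours give 4 kinds with their cell numbers. Most Retnla cells line the left edge, at or near 0 Apoe, and reach the highest Lpl values; C1q cells with fewer than 3 Retnla UMIs lie at the right, where many carry Fcrls.

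Genes that ran with the 6 members listed in every library (C1qa, C1qc, Apoe, Trem2, Ms4a7 and Lgmn) were ranked over 11 tissue and class sums. The sums were C1q, Fn1/Retnla, T and mast cells with at least 20 cells each. The measure was the correlation of log2(CPM + 10) with the mean of these 6 members. Among the nearest of 6084 genes were C5ar1, a complement C5a receptor (r = 0.989), Itgb5 (0.988), Tmem119 (0.987), Pdlim4 (0.982), Abcc3 (0.982), Cxcl16 (0.981), Stab1 (0.979), Tmem86a (0.977) and Rab3il1 (0.976). The sums share libraries. C1qa and C1qc chose the C1q cells and were limited by rule in the other classes, so high correlations are partly set by the rule. Fcrls and Lpl are not in the mean, and this is a description. C5ar1 stood at 294 CPM in stomach C1q cells, 35.3 in Fn1/Retnla cells and 0 in T cells. Itgb5, an integrin beta chain, stood at 478, 23.6 and 0 CPM.

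Pathway partners of the members were compared between stomach C1q and Fn1/Retnla cells, where 9.33% of all genes were at least 2-fold higher in C1q cells and 12% lower. Of 18 lysosomal genes other than Lgmn, 6 were at least 2-fold higher in C1q cells and 0 lower (median log2 ratio 0.81), led by the cathepsin gene Ctsl (4.66-fold, 3.11 to 7.27), Cst3 (3.33-fold), Ctsb (3.15-fold) and Ctss (2.75-fold). Of 21 lipid genes 6 were higher and 2 lower (median 0.30), among them the cholesterol exporter Abca1 (8.73-fold, 4.90 to 17.2) and the tetraspanin Cd9 (10.3-fold). Ch25h, cholesterol 25-hydroxylase, had 100 UMIs against 0, at least 16.1-fold higher. The median over all genes was -0.23.

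Of 12 complement genes 4 were higher and 3 lower (median 0.11). The C3a receptor gene C3ar1 was 65.5-fold (25.4 to 241) higher in C1q cells, C5ar1 8.31-fold and C4b 31.9-fold, with 66 and 1 UMIs. Cfp, properdin of the alternative pathway, was 3.59-fold (3.03 to 4.27) lower. Among 12 genes of Trem2 signalling 1 was higher (Adam10, 3.68-fold) and 1 lower (Trem1, 5.09-fold). In the Ms4a family 2 of 6 were higher and 2 lower, with Ms4a6d 2.73-fold higher, Ms4a14 at least 13.4-fold higher, and Ms4a8a 3.63-fold and Ms4a4c 2.99-fold lower. Of 6 Fc receptor genes 3 were higher and 0 lower, with Fcgr4 34.6-fold, Fcgr1 8.29-fold and Fcgrt 3.98-fold. Of 22 genes of resident gut macrophages 16 were higher and 2 lower (median 2.49), of 8 class II genes 5 and 0 (median 1.04), and of 7 alternative activation genes 1 and 5, a list that holds Fn1 and Retnla, which chose the cells.

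Between stomach and small intestine C1q cells, where 13.9% of all genes were at least 2-fold higher and 16% lower, the lists were counted in the same way. Lysosomal genes were 0 higher and 0 lower of 18, lipid genes 4 and 1 of 21, complement genes 1 and 1 of 10, Trem2 signalling genes 2 and 1 of 11, Ms4a genes 0 and 0 of 5, Fc receptor genes 1 and 0 of 6, and class II genes 0 and 0 of 8. Resident macrophage genes were 2 higher and 3 lower of 22. Alternative activation genes were 3 higher and 1 lower of 5 (median log2 ratio 2.98), with Retnla and Fn1, which chose cells, among the 3. Timd4, a phosphatidylserine receptor, was 31.9-fold (12.7 to 90.3) higher in small intestine, with 18 UMIs against 7 in stomach, and Hes1, a Notch target, 3.70-fold (2.62 to 5.13).

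T cells, a class that should lack these genes, held few C1q transcripts as defined here. C1qa stood at 7.23 CPM in 285 stomach T cells (6 UMIs), 0.415 in 2529 of small intestine, 0.574 in 3465 of cecum and 0.171 in 3379 of colon. C1qc had 0, 0, 0 and 2 UMIs. T cells were taken with fewer than 3 C1q UMIs, so the C1q levels there are partly set by the rule. Cells with both a Cd3 UMI and at least 3 UMIs of C1q, or of Fn1 and Retnla summed, were left out of the T cells, and these held 202, 9, 92 and 174 C1qa UMIs. Apoe in macrophages was 426-fold (310 to 601) above T cells in stomach, 1443-fold in small intestine, 322-fold in cecum and 415-fold in colon. With those of them that had at least 2 Cd3 UMIs counted as T cells, the ratios were 38.2, 1049, 185 and 183. The rest, with 1 Cd3 UMI or at least 2% mast cell protease UMIs, stayed out of both classes. For Lgmn the stomach ratio was 55.5 (32.9 to 102) and became 22.4. Of 31 such ratios over the members and libraries, 18 left their reported interval under that change. Median depth was 2589, 2341, 1767 and 3023 UMIs per T cell.

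Apoe was the member with the highest level outside macrophages. In T cells it stood at 45.8 CPM (32.4 to 62.9), 12.7, 38.3 and 14.5, and 103 of the 267 cecum UMIs came from 1 cell. Stomach mast cells carried 179 CPM (166 to 192), and 24.7% of 1892 mast cells had an Apoe UMI, beside 7.02% of stomach T cells. At 1000 UMIs per cell the shares were 13.9% and 3.16%. In the same mast cells C1qa stood at 4.38 CPM and C1qc at 4.61, with Ms4a7 at 3, Lgmn at 4.38, Fcrls at 0.922 and Trem2 and Lpl at 0.461. Apoe and C1qa had 775 and 19 UMIs in mast cells, beside 30101 and 7722 in C1q cells. The rule limited C1qa but not Apoe in mast cells, so these counts cannot be compared as a ratio.

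B cells, taken by Cd79a, Cd79b and Ms4a1, were added after the values had been seen. They carried more Apoe than T or mast cells in small intestine and cecum, and more than T cells in colon. The level was 344 CPM (267 to 436) over 78 stomach B cells, 1437 (1254 to 1639) over 43 of small intestine, 1175 (1102 to 1252) over 542 of cecum and 1569 (1442 to 1704) over 175 of colon. In stomach 46 of the 68 UMIs came from 1 cell, and without it the level was 114 CPM (71.6 to 173), beside 176 (164 to 189) in mast cells treated the same way, and these intervals overlap. C1qa, C1qc, Trem2 and Ms4a7 had 0 UMIs in the B cells of small intestine, cecum and colon, which allows up to 3.68 CPM for each in cecum. Lgmn stood at 91.0, 136, 166 and 166 CPM. B cells held 39.3% of all Apoe UMIs of the cecum library and C1q cells 14.2%, whereas stomach C1q cells held 92.9% of theirs.

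**Figure D5:**
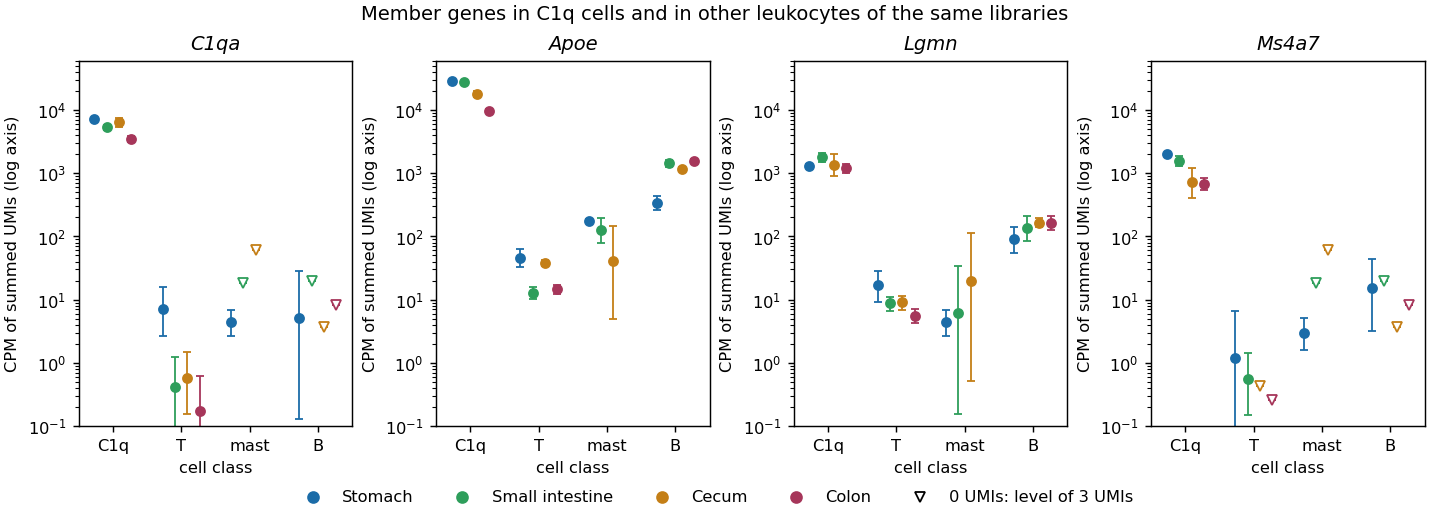
Levels of C1qa, Apoe, Lgmn and Ms4a7 (CPM of summed UMIs, log axis) in C1q, T, mast and B cells of each library, with 95% Poisson intervals; open triangles mark 0 UMIs, drawn at the level of 3 UMIs, and mast classes under 20 cells are left out. Apoe in B cells lies between 344 and 1569 CPM, where C1qa and Ms4a7 are at or near 0.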

How the data were processed

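The authors deposited 1 matrix of UMI counts for each library, with gene symbols and cell barcodes; its whole numbers were taken as unnormalised. The submitters' processing notes name Cell Ranger (version not given) and Seurat 3.0.0 with genome build GRCm38 (mm10), and the labels name the version 2 kit. Barcodes with at least 200 genes were kept, 14373 of 14378, and no doublet caller was run. In all, 23 barcode sequences occur in more than 1 library, and 1 of them was a macrophage. Each library listed its own symbols, 13102 in all 4.

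UMIs were summed over a class and given as CPM with exact Poisson intervals. For a ratio the interval was the exact conditional binomial one, and for a share of cells the Clopper-Pearson one, all at 95% and for counting error only. A count of 0 allows 3 UMIs over the class. A gene was compared when listed in both libraries, with at least 50 CPM in either and 20 UMIs in total, and 2-fold was the size rule. T cells had at least 2 Cd3 UMIs, and mast cells at least 2% of UMIs from mast cell proteases (Mcpt1, Mcpt2, Cpa3, Tpsb2, Cma1, Mcpt4). Both classes left out cells that pass the macrophage rule.

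Named were all 9 members, the 10 genes most like the mean of the 6 listed in every library (all 9 had been planned), and the 4 list genes with the largest ratio of stomach over small intestine. The list genes printed for C1q over Fn1/Retnla cells are the 4 with the largest ratio there or members of a count, chosen after their values were seen. Members and lists were chosen with earlier results of these data known. Gene positions came from GENCODE M21. Statistics were computed in Python 3.11.15 with numpy 2.4.6, scipy 1.17.1 and pandas 2.3.3 and tested on simulated data. Alternatives covered UMI thresholds, Cd3 and mast cell filters, depth, averaging over cells, single cells left out and low counts. The split by Retnla, the B cell class, the 10-cell minimum for small intestine and colon, the filter on 1 Cd3 UMI, and the Apoe levels of other leukocytes without their top cell were added after the values had been seen. Some genes, and the results that need them, are not reported here.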

Additional observations from a re-analysis of the deposited data

Results flagged for a closer look

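Trem2 differed in direction between libraries when C1q cells were compared with Fn1/Retnla cells. The log2 ratio of C1q over Fn1/Retnla cells was 4.33 in stomach and 1.96 in small intestine, but -1.05 in colon. The colon value rests on 8 and 17 UMIs and its ratio of 0.482 (0.180 to 1.18) includes 1 in its counting interval. With 1 library per tissue the difference between libraries was not tested.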

How the results depend on the processing

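No paired analysis was possible because each tissue has 1 library. Of 368 alternative values of the member ratios between tissues or macrophage kinds, 337 stayed inside the reported interval and none of those at least 2-fold changed direction. Of these 337, 29 came from dropping the filter on low counts, which cannot change a ratio. Another 29 came from choosing C1q cells by C1qa and C1qc alone. C1qb was listed only in stomach and gave 0.230% of the C1q UMIs there, so that choice could change little. Counted over all members compared, C1q included, the number at least 2-fold higher in small intestine than colon fell from 3 to 1 when any Cd3 count, or at most 1 Cd3 UMI, was allowed. The number higher in stomach than cecum went from 2 to 1 when only cells at least as deep as the lowest small intestine macrophage (2098 UMIs) were kept. Without the cell with most UMIs of the gene, the stomach to small intestine log2 ratio was 4.02 for Fcrls and 2.87 for Lpl, and the stomach to colon one was at least 4.44 for Fcrls and 4.94 for Lpl. The counts of members split by macrophage kind in stomach held within 1.5 times under every alternative run. The small number of cells limits Fcrls, Lpl and Trem2 outside stomach, where 5 to 24 C1q cells gave at most 19 UMIs of any of them.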
